A study of Mus musculus with 24 samples.

Results

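The insulin-like growth factor (IGF) ligands Igf1 and Igf2, the receptors Igf1r and Igf2r, and the binding protein genes Igfbp2, Igfbp3, Igfbp4, Igfbp5, Igfbp6 and Igfbp7 were followed in RNA-Seq data from outflow tract arteries of mouse embryos at E18.5. These 10 genes were taken by symbol from the 54752 genes of the deposited count table, and all 10 were among the 16463 genes with enough counts to be tested. The ductus arteriosus (DA), the fetal vessel that links the pulmonary artery to the descending aorta and closes at birth, was compared with the ascending aorta, each with and without Prdm6. The Prdm6-deficient embryos were labelled Wnt1Cre;PRDM6f/f, so that Cre, driven by the Wnt1 promoter, removed floxed Prdm6 in neural crest cells and their descendants and left the gene in the other cells of the vessel wall. The controls were littermates on the same C57/Black6 background and received no treatment. Of 7 control DA samples, 5 were labelled PRDM6wt/f, 1 PRDM6wt/wt and 1 Wnt1Cre;PRDM6wt/wt, and of 6 control aorta samples, 5 were PRDM6wt/f and 1 was Wnt1Cre;PRDM6wt/wt. The Prdm6-deficient groups had 5 DA and 5 aorta samples. Prdm6-deficient DA replicates 1 and 2 were each a pool of 2 embryos, and the other samples were single embryos. Replicate 4 of that group was not analysed here.

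IGF1 and IGF2 are secreted growth factors that signal through the receptor tyrosine kinase encoded by Igf1r, whereas the receptor encoded by Igf2r mainly takes IGF2 into the cell for breakdown. Most IGF outside cells is held by binding proteins, which can store it, keep it from the receptor or release it when proteases cut them, and some of which also act on cells without IGF. In the fetus Igf2 is the main ligand gene, and it is imprinted, as are Igf2r and H19. Vascular smooth muscle cells (SMCs) make both ligands and several binding proteins and respond to IGF with growth and survival.

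Total counts ranged from 15163974 to 22610547 per library, so that 3 counts equalled 0.133 to 0.198 on the CPM scale, in which counts are divided by library size, and the members had between 78 and 75690 counts in each library. Prdm6, as a check of the labels, was at 72.7 ± 8.50 CPM (SD, n = 5) in the Prdm6-deficient DA and 108 ± 16.3 CPM (n = 7) in the control DA, and at 70.3 ± 6.95 (n = 5) against 113 ± 16.2 CPM (n = 6) in the aorta. It was called lower in both vessels (log2 -0.57, adjusted p = 5.53e-04 in the DA and log2 -0.69, adjusted p = 1.7e-04 in the aorta), with no overlap between the groups. The counts are per gene and do not separate the deleted exons from the rest. SMC markers (Myh11, Acta2, Cnn1, Tagln, Mylk, Smtn and Myocd) were detected in all groups. Their summed level was far from even between groups, however, at 18135 ± 3883 CPM in the control DA and 10693 ± 903 CPM in the Prdm6-deficient DA (n = 7 and 5), as described below with the results it touches. A gene was called where its adjusted p in edgeR was below 0.01 and its log2 fold change was beyond 0.5 in either direction. The group comparisons share libraries, and therefore they are not independent of each other.

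With Prdm6 deficiency, 1 of the 10 IGF genes was called in the DA. Igfbp2 was 5.45-fold lower, and it was also the IGF gene that set the control DA apart most from the control aorta, where it was 4.41-fold lower. In the aorta the called gene was Igfbp3, which was 2.11-fold higher in Prdm6-deficient samples. Its effect was not called different between the vessels. Igfbp7 in the DA and Igf2 in the aorta passed the p threshold but not the fold threshold. Both ligands and both receptors stayed on the uncalled side in these comparisons, and their levels are given below with their intervals. In the tested genes as a whole, 5.43% were called between the DA groups (2.61% higher and 2.82% lower with Prdm6 deficiency) and 2.45% between the aorta groups (1.63% higher and 0.826% lower), so that a count of 1 member of 10 does not set the family apart. The median log2 fold change of the 10 members was 0.13 in the DA and -0.24 in the aorta, beside 0.01 and about 0 for all tested genes. Between the control vessels 3 members of 10 were called, against 5.36% of all tested genes (3.16% up and 2.19% down in the DA relative to the aorta), and their groups did not overlap, as held for 5.36% of all tested genes. Between the Prdm6-deficient vessels edgeR called 0 members, against 0.267% of all genes. At an unadjusted p below 0.05 it had 2 members, and DESeq2 and limma-voom called 0.

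**Figure D1:**
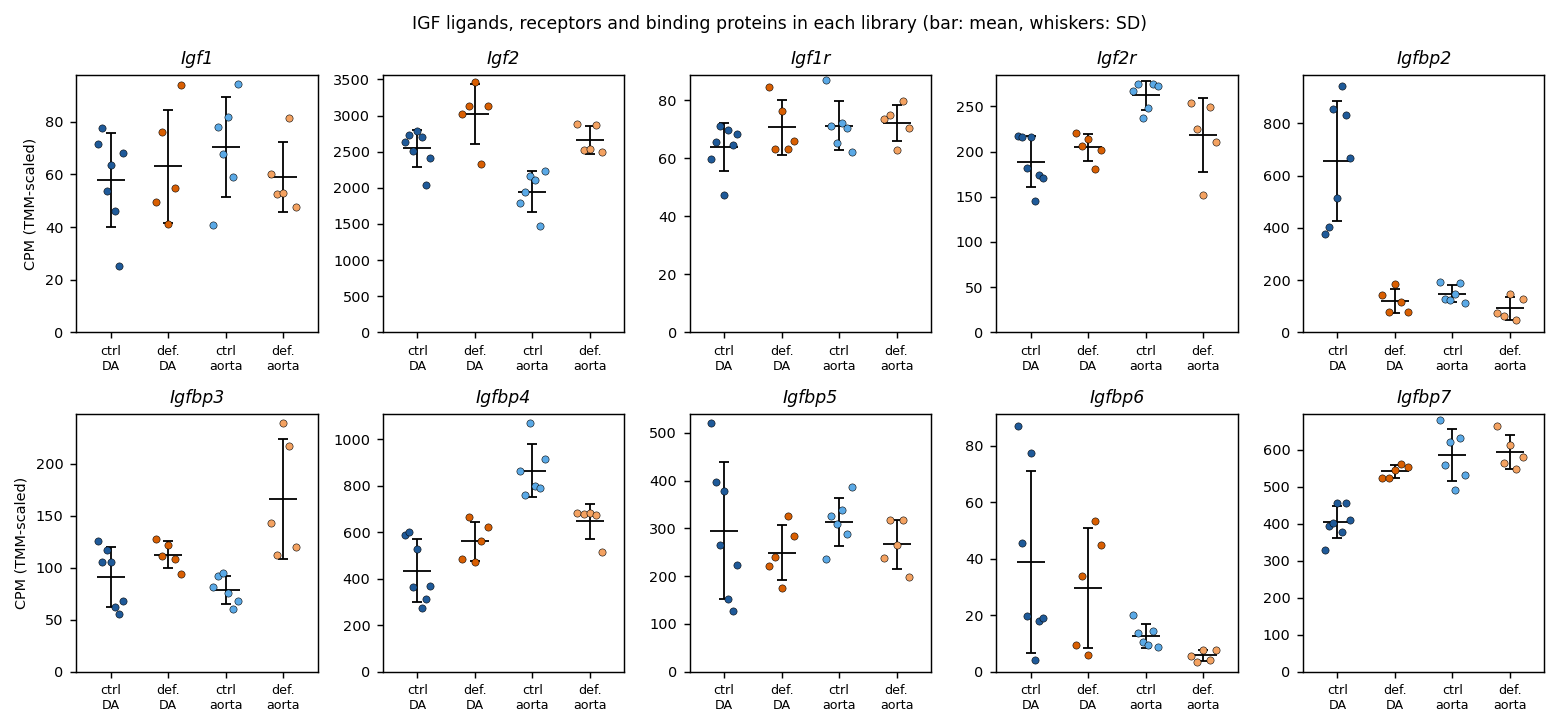
CPM (linear axis from 0) of the 10 IGF genes, with 1 point per library in 7 control DA, 5 Prdm6-deficient DA, 6 control aorta and 5 Prdm6-deficient aorta libraries. Horizontal bars are means and whiskers are SDs. Igfbp2 lay above 370 CPM in the control DA libraries and at or below 193 CPM in the 16 others.

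Igf2 was the most abundant ligand in every group. Its CPM in the Prdm6-deficient DA was 3028, 3129, 3468, 2335 and 3126 in replicates 1, 2, 5, 6 and 7. In the control DA it ran from 2042 to 2790 with a median of 2632. Replicate 6 of the Prdm6-deficient group lay within the control range and the other samples above it. The log2 fold change was 0.25 (SE 0.10, 95% interval 0.04 to 0.45, adjusted p = 0.110). In the aorta the samples separated. Prdm6-deficient aortas had 2886, 2525, 2535, 2865 and 2495 CPM in replicates 1 to 5, and control aortas ran from 1465 to 2237 CPM with a median of 2023. Igf2 was thus 1.37-fold higher in the Prdm6-deficient aorta (log2 0.45, SE 0.10, adjusted p = 0.00619), which passes the p threshold, as 2.88% of all tested genes did, but not the fold threshold. Likewise, Igf2 was 1.31-fold higher in the control DA than in the control aorta (log2 0.39, SE 0.09, adjusted p = 0.00576), with overlapping ranges. The Prdm6 effect on Igf2 did not pass the test of a difference between the vessels (log2 -0.20, 95% interval -0.49 to 0.09, adjusted p = 0.561).

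Igf1, the other ligand, was a minor transcript. Per kilobase of exon, Igf2 was 83.3 ± 28.6 times as abundant as Igf1 in the control DA, 90.9 ± 35.3 times in the Prdm6-deficient DA, 50.4 ± 13.6 times in the control aorta and 80.05 ± 11.2 times in the Prdm6-deficient aorta. Igf1 had 49.4, 75.9, 41.3, 54.7 and 93.8 CPM in the Prdm6-deficient DA, and 25.3 to 77.6 CPM with a median of 63.7 in the control DA. These ranges overlapped almost throughout. Prdm6-deficient aortas had 60.1, 52.7, 53.0, 81.3 and 47.7 CPM and control aortas 40.6 to 94.5 CPM, again with overlap. The log2 difference was 0.12 in the DA (95% interval -0.35 to 0.59) and -0.25 in the aorta (-0.74 to 0.23), so changes within these intervals were not detectable here.

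The signalling receptor gene Igf1r had similar means in all groups, at 63.9 CPM in the control DA, 70.7 in the Prdm6-deficient DA, 71.3 in the control aorta and 72.2 in the Prdm6-deficient aorta, with SDs between 6.24 and 9.41 CPM. The 95% intervals of its log2 difference ran from -0.06 to 0.35 for Prdm6 deficiency in the DA and from -0.19 to 0.23 in the aorta. Igf2r, the clearance receptor, differed between the control vessels. It ran from 145 to 217 CPM (median 182) in the control DA and from 237 to 275 CPM (median 270) in the control aorta. The groups did not overlap, and the DA was 1.39-fold lower (log2 -0.48, SE 0.10, adjusted p = 0.00158), past the p threshold, as 6.99% of all tested genes were, and short of the fold threshold. It was called when control aorta replicate 3 or control DA replicates 1, 2 or 4 were left out. Prdm6-deficient DA had 221, 206, 213, 181 and 202 CPM, and Prdm6-deficient aorta had 254, 225, 152, 249 and 211 CPM, with replicate 3 lowest. Neither Prdm6 comparison of Igf2r passed the test, at log2 0.12 in the DA (95% interval -0.10 to 0.34) and -0.27 in the aorta (-0.49 to -0.04, adjusted p = 0.230). Reads of Airn, the long noncoding RNA that runs antisense through the Igf2r promoter, came to 4.11% of the Igf2r counts. No source says whether strand was used in counting, and the 2 genes are therefore not fully separated.

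Igfbp2 encodes a secreted binding protein with a preference for IGF2 that can also bind cell surface integrins. It lies at chr1:72824503-72852474 on the plus strand (mm10), tail to tail with Igfbp5 at chr1:72857932-72874884 on the minus strand, with 5.457 kb between them. In the control DA it ran from 376 to 942 CPM with a median of 667 (mean 656 ± 229, n = 7). In the Prdm6-deficient DA it was 143, 79.7, 187, 115 and 77.8 CPM in replicates 1, 2, 5, 6 and 7. The groups did not overlap, and the lowest control DA library, at 376 CPM, was far above the highest Prdm6-deficient one, at 187 CPM. The log2 fold change was -2.45 (SE 0.29, 95% interval -3.04 to -1.85, adjusted p = 9.35e-07). In the control aorta Igfbp2 ran from 111 to 193 CPM (median 138), and in the Prdm6-deficient aorta it was 72.3, 63.7, 148, 49.2 and 127 CPM. The 4.41-fold excess of the control DA over the control aorta was called (log2 2.14, SE 0.27, adjusted p = 1.7e-06), whereas the 1.62-fold lower level in the Prdm6-deficient aorta was not (log2 -0.69, SE 0.28, adjusted p = 0.205). Between the Prdm6-deficient vessels the log2 difference was 0.39 (95% interval -0.20 to 0.98, adjusted p = 0.747).

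The effect of Prdm6 deficiency on Igfbp2 was larger in the DA than in the aorta by 1.75 on the log2 scale (log2 -1.75, SE 0.39, adjusted p = 0.00519), and this was the 1 member called for a difference between the vessels, against 2.58% of all tested genes. That call was close to the threshold. It was lost when any of 9 libraries was left out (Prdm6-deficient aorta replicates 3 and 5, Prdm6-deficient DA replicates 2, 6 and 7, control aorta replicates 2, 3 and 6, and control DA replicate 5), with an adjusted p of up to 0.0156. The fall in the DA itself kept its call whichever single library was left out, at log2 -2.66 to -2.32. The embryos carried animal numbers from 2 runs. Within the first run alone, with 3 Prdm6-deficient and 2 control samples, the log2 fold change of Igfbp2 in the DA was -2.08 (adjusted p = 0.0136, not called), and within the second, with 2 and 5 samples, it was -3.09 (adjusted p = 8.09e-04).

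The bases just before the start sites of Igfbp2, of its neighbour Igfbp5 and of Igfbp3 are shown because Igfbp2 and Igfbp3 were the members called with Prdm6 deficiency, in the DA and in the aorta, and Igfbp5 is the neighbour of Igfbp2 and was not called. They come from RefSeq (GRCm38.p6) and run 5′ to 3′ on the strand of the gene, with GC boxes (GGGCGG on either strand) in capitals.
Igfbp2, chr1:72824230-72824479, plus strand: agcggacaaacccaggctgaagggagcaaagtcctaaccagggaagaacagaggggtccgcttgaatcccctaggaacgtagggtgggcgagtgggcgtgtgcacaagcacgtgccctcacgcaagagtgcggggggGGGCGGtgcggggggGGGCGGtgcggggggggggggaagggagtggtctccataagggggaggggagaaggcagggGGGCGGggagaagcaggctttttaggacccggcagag
Igfbp5, chr1:72874866-72875115, minus strand: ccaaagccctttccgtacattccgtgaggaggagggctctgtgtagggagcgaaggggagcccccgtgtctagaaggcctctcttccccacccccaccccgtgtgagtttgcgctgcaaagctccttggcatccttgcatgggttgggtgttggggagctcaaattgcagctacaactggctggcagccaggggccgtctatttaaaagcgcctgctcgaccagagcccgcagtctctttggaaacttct
Igfbp3, chr11:7213924-7214173, minus strand: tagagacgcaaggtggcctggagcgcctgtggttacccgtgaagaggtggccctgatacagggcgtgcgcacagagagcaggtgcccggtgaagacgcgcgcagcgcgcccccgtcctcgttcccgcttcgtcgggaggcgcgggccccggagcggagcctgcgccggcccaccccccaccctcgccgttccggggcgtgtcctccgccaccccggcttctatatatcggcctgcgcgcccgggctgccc
The Igfbp2 window held 3 GC boxes, while the Igfbp5 and Igfbp3 windows held 0. Among all 32851 start sites of the table, 32.7% had at least 1 GC box in the 250 bases before the start. All 10 members had a window, and 4 of the 10 had a GC box (Igf1r, Igf2r, Igfbp2 and Igfbp7, taking the window nearest to the start of the gene model). A CArG box, the SRF motif common in SMC genes, was in 0 of the 10 windows and in 1.47% of all windows. The TATA box letters TATAAA were in the window of Igfbp4 and, only as the reverse complement TTTATA, in that of Igfbp6. On either strand they were in 12.4% of all windows. Distance to the start and variants of the letters were not considered. The AP-1 motif TGANTCA was in the window of Igf1 (6.75% of all windows), and the TEAD motif GGAATG in that of Igfbp5 (12.6%). These are matches of letters in 1 short window per gene, on either strand. Igf2 and Igfbp2 had further start sites, among 14 windows in all, which these member counts leave out. The other Igfbp2 window (chr1:72825137-72825386) held the AP-1 motif. Further Igf2 windows held GC boxes and the TEAD motif.

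Igfbp5, a matrix-associated binding protein, was called in 0 of the 5 comparisons. It had 222, 240, 175, 326 and 283 CPM in the Prdm6-deficient DA and 128 to 520 CPM (median 266) in the control DA. Its log2 difference was -0.24 in the DA (95% interval -0.74 to 0.25) and -0.23 in the aorta (-0.75 to 0.28), neither of which passed the test. The control DA had the widest spread of Igfbp5 of the 4 groups (SD 143 CPM around a mean of 295).

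Igfbp3, the main IGF carrier of the blood in later life and also a local tissue protein, rose in the Prdm6-deficient aorta. It lies at chr11:7206086-7213923 (minus strand). Replicates 1 to 5 of the Prdm6-deficient aorta had 143, 112, 239, 217 and 120 CPM, and the control aorta ran from 60.2 to 95.4 CPM with a median of 78.9. The groups did not overlap, although replicates 3 and 4, both from the first run of animal numbers, were well above the other 3. The log2 fold change was 1.08 (SE 0.20, 95% interval 0.66 to 1.49, adjusted p = 0.00103). Within the second run of animal numbers alone it was 0.72 (adjusted p = 0.00297), and the first run had a single control aorta, so no value was computed there. Leaving out any 1 library kept the call, at log2 0.91 to 1.19. In the DA the Prdm6-deficient samples had 127, 112, 122, 109 and 94.4 CPM and the controls 55.9 to 126 CPM (median 106), with a log2 difference of 0.30 (95% interval -0.10 to 0.70, adjusted p = 0.390). The difference between the vessels in this effect did not pass the test (log2 -0.77, 95% interval -1.36 to -0.19, adjusted p = 0.132). Summed endothelial markers (Pecam1, Cdh5, Kdr, Tek, Emcn and Tie1) were 963 ± 108 CPM in the Prdm6-deficient aorta and 654 ± 129 CPM in the control aorta, and 3 of these 6 genes were called higher there. Their part in the Igfbp3 result was not tested.

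Igfbp4, generally an inhibitor of IGF action that is inactivated by the protease PAPP-A, was the binding protein most clearly favoured by the control aorta. It ran from 761 to 1070 CPM (median 831) there and from 273 to 600 CPM (median 369) in the control DA. The groups did not overlap, and the DA was 1.99-fold lower (log2 -0.995, SE 0.15, adjusted p = 2.31e-05). The Prdm6-deficient DA had 484, 664, 474, 564 and 623 CPM, within or just above the control DA range (log2 0.37, 95% interval 0.05 to 0.69, adjusted p = 0.132). The Prdm6-deficient aorta had 683, 678, 684, 674 and 513 CPM, below every control aorta, yet the log2 difference of -0.42 (95% interval -0.75 to -0.09) did not pass the test (adjusted p = 0.175). Of all tested genes, 6.95% had groups that did not overlap in this comparison. The effects in the vessels differed by 0.79 on the log2 scale (SE 0.22, adjusted p = 0.0359), short of the threshold.

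Igfbp7, a low-affinity IGF binder of the vessel wall and basement membrane, was also lower in the control DA than in the control aorta, and its levels in the DA groups did not overlap. It had 525, 524, 547, 563 and 554 CPM in the Prdm6-deficient DA, against 330 to 457 CPM (median 404) in the control DA. No overlap between these groups held for 5.66% of all tested genes. The log2 fold change was 0.42 (SE 0.08, adjusted p = 5.53e-04), past the p threshold, as 6.8% of all tested genes were, and short of the fold threshold. The control aorta ran from 492 to 680 CPM (median 590), and the control DA was 1.45-fold lower than it (log2 -0.53, SE 0.08, adjusted p = 1.43e-05), a call that rests near the fold threshold and was lost without control aorta replicate 1 (2 members called) or without control DA replicate 1. The Prdm6-deficient aorta, at 665, 565, 614, 549 and 580 CPM, overlapped its control (log2 0.02, 95% interval -0.15 to 0.19). Between the Prdm6-deficient vessels the log2 difference was -0.13 (95% interval -0.31 to 0.05, adjusted p = 0.688). Polr2b, which overlaps Igfbp7 on the opposite strand, had 9.41% of its counts.

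Igfbp6, a binding protein with a strong preference for IGF2, varied widely between libraries, above all in the DA. In the control DA it ran from 4.2 to 87.2 CPM (median 19.9), and in the Prdm6-deficient DA it was 9.29, 34.0, 5.82, 53.5 and 45.0 CPM. The control aorta ran from 8.68 to 20.0 CPM (median 12.1), and the Prdm6-deficient aorta, at 5.72, 3.57, 7.67, 4.19 and 7.81 CPM, lay below all 6 controls. Even so, the log2 difference of -1.14 (SE 0.56) did not pass the test (adjusted p = 0.371), and it was called only when the aorta libraries were fitted alone (adjusted p = 0.00658, 2 members called). The DA exceeded the aorta by 1.60 on the log2 scale in controls (SE 0.51, adjusted p = 0.0391) and by 2.35 in Prdm6-deficient samples (SE 0.59, adjusted p = 0.0536), neither of which passed the threshold of 0.01. The difference between the control vessels was called without control DA replicate 5 (adjusted p = 0.00898).

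**Figure D2:**
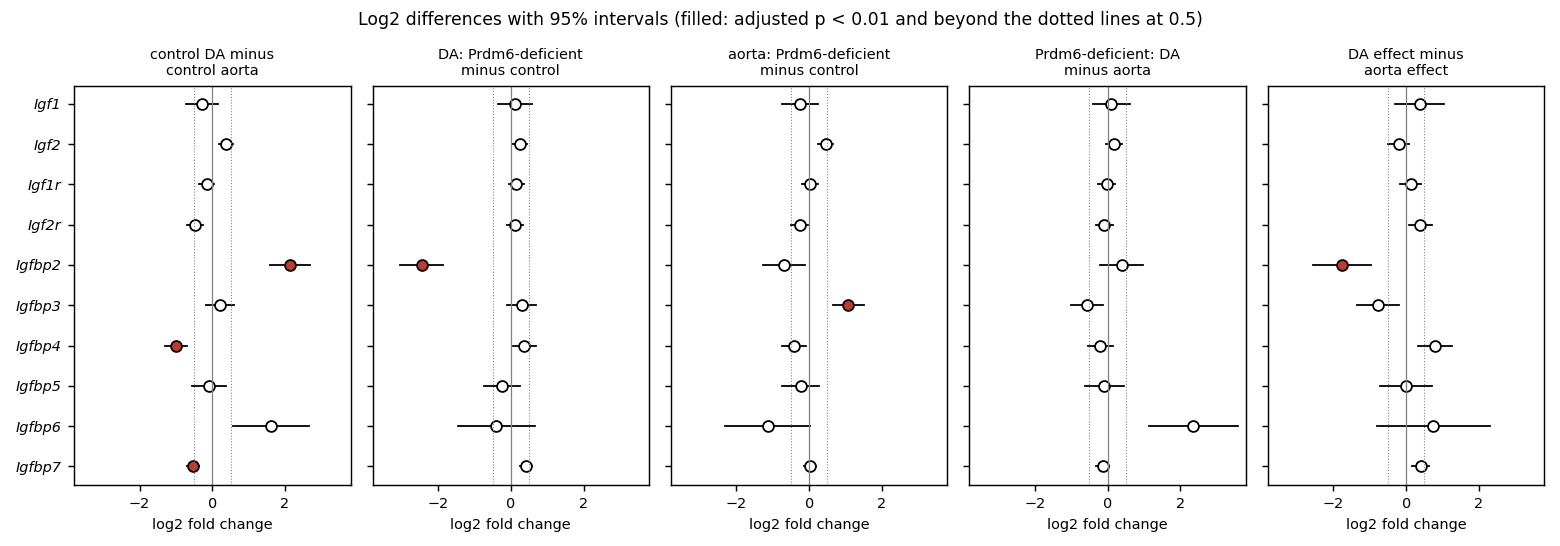
Log2 fold change (x axis) of each IGF gene (y axis) in 5 comparisons, with 95% intervals. Dotted lines mark 0.5 either way, and filled points were called. The filled points are Igfbp2, Igfbp4 and Igfbp7 between the control vessels, Igfbp2 in the DA, Igfbp3 in the aorta, and Igfbp2 for the difference between the vessels in the effect of Prdm6 deficiency.

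Levels of different genes were compared per kilobase of exon. In the control DA the order of means began with Igf2 (445 ± 45.0 CPM per kb), Igfbp2 (355 ± 124) and Igfbp7 (335 ± 36.8). The ranges of these 3 overlapped. Igfbp4 (98.3 ± 30.7) and Igfbp5 (49.1 ± 23.8) followed, then Igfbp6 (34.9 ± 29.0), Igfbp3 (29.2 ± 9.19) and Igf2r (20.3 ± 3.03), and last Igf1 (5.86 ± 1.81) and Igf1r (3.8 ± 0.486). From Igfbp4 to Igf2r the ranges of neighbours in this order overlapped, as did those of Igf1 and Igf1r. In the control aorta Igfbp7 came first (485 ± 58.2), above Igf2 (341 ± 50.1) and Igfbp4 (196 ± 25.9), and Igfbp2 (80.5 ± 18.6) was the fourth. In the Prdm6-deficient DA the first 3 places went to Igf2 (527 ± 72.7), Igfbp7 (449 ± 14.6) and Igfbp4 (127 ± 18.9), and Igfbp2 (65.1 ± 24.8) was the fourth. The ranges of Igf2 and Igfbp7 overlapped there.

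The make-up of the binding protein mRNA therefore differed more than its sum. The 6 Igfbp genes together came to 901 ± 66.9 CPM per kb in the control DA, 745 ± 32.4 in the Prdm6-deficient DA, 850 ± 75.1 in the control aorta and 791 ± 57.7 in the Prdm6-deficient aorta. Igfbp2 held 38.9 ± 11.7% of that sum in the control DA, 8.79 ± 3.51% in the Prdm6-deficient DA, 9.45 ± 1.82% in the control aorta and 6.25 ± 2.75% in the Prdm6-deficient aorta. Igfbp7 held 37.2 ± 3.23%, 60.3 ± 1.31%, 56.9 ± 2.31% and 62.2 ± 3.17% in the same order. The summed ligand level was 0.504 ± 0.0726 times the summed binding protein level in the control DA, 0.719 ± 0.117 times in the Prdm6-deficient DA, 0.414 ± 0.0835 times in the control aorta and 0.597 ± 0.0552 times in the Prdm6-deficient aorta. These sums weigh mRNA and not protein, and they were not tested.

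**Figure D3:**
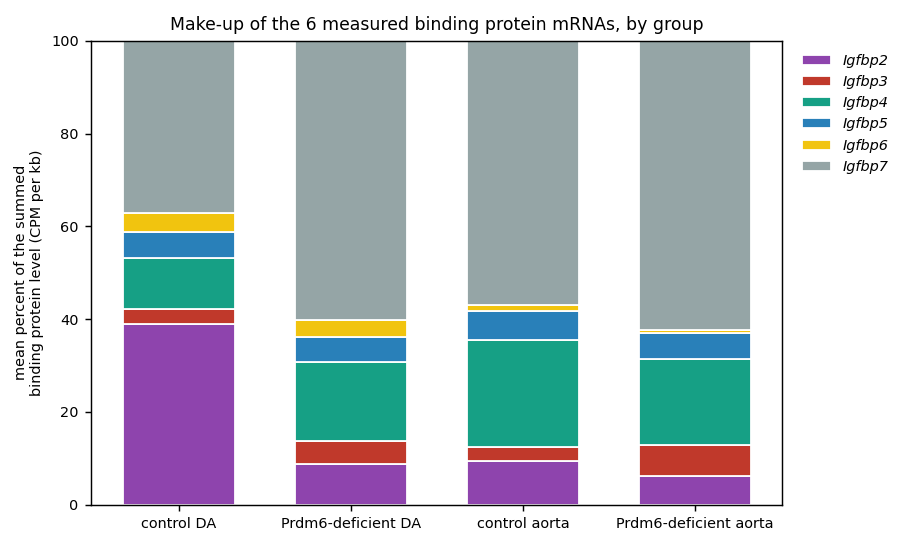
Mean percent (y axis) of the summed CPM per kb of Igfbp2 to Igfbp7 that each gene held in the 4 groups (x axis). The Igfbp2 part was 38.9% in the control DA and between 6.25% and 9.45% in the 3 other groups, where Igfbp7 held 56.9% to 62.2%.

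Members also varied among the control DA libraries in step with markers of other cell types. Control DA replicates 1, 2 and 4 had summed fibroblast markers (Pdgfra, Dpt, Dcn, Lum, Pi16 and Clec3b) of 1895, 1631 and 1321 CPM, and replicates 3, 5, 6 and 7 had 721, 715, 702 and 1017 CPM. Igfbp2 was lowest in the first 3, at 376, 403 and 516 CPM, and highest in replicates 3, 5 and 6, at 853, 942 and 831 CPM. Over the 7 control DA libraries, on the log2 scale, Igfbp2 fell with the fibroblast sum (Pearson's r = -0.991, exact permutation p = 7.94e-04, adjusted p = 0.00794 over 20 relations, 2-sided; Spearman's rho = -0.893, exact permutation p = 0.0123, adjusted p = 0.0351) and rose with the SMC sum (r = 0.981, exact permutation p = 5.95e-04, adjusted p = 0.00794; rho = 0.964, exact permutation p = 0.00278, adjusted p = 0.0185). Without the 2 libraries farthest from the median of the sum, r was -0.976 and 0.980 over 5 libraries. Igfbp4 went the opposite way, with r = 0.946 to the fibroblast sum (exact permutation p = 0.00397, adjusted p = 0.0208; rho = 0.929, exact permutation p = 0.00675, adjusted p = 0.0270), and r = 0.880 without the 2 farthest libraries. The corresponding r was 0.899 for Igfbp5 (exact permutation p = 0.00992, adjusted p = 0.0397; rho = 0.964, exact permutation p = 0.00278, adjusted p = 0.0185; r = 0.777 without the 2 farthest). Of the 20 relations, the 5 with an adjusted p of r below 0.05 were those of Igfbp2 and Igfbp4 with either sum and that of Igfbp5 with the fibroblast sum. The 2 sums nearly mirrored each other over these libraries (r = -0.961), so the relations of a gene to both are not independent. The relations were computed after the pattern was seen, all values of a library share its scaling, and the control DA had 2 libraries in the first run of animal numbers and 5 in the second, too few in the first for a value within it.

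The means of the same sums differed between the DA groups. In the Prdm6-deficient and control aorta they were similar, at 1387 ± 182 and 1437 ± 173 CPM for fibroblast markers. The SMC sums there were 10305 ± 648 and 10316 ± 1204 CPM. The fibroblast sum was 1765 ± 306 CPM (1337 to 2123) in the Prdm6-deficient DA and 1143 ± 484 CPM (702 to 1895) in the control DA, where 1 of the 6 genes was called higher with Prdm6 deficiency, and 5 of the 7 SMC genes were called lower. No fibroblast or SMC marker was at or under 3 counts in all libraries of a group. Bulk samples cannot tell fewer cells of a type from less RNA per cell. The fibroblast sums of the DA groups overlapped between 1337 and 1895 CPM. In that span lay control DA replicates 1 and 2, with 376 and 403 CPM of Igfbp2, and Prdm6-deficient DA replicates 1, 5 and 6, with 143, 187 and 115 CPM. The SMC sums of the DA groups did not overlap, with the lowest control at 13427 CPM and the highest Prdm6-deficient library at 11915 CPM. The part of cell makeup in the Igfbp2, Igfbp4, Igfbp5 and Igfbp6 values was not tested.

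**Figure D4:**
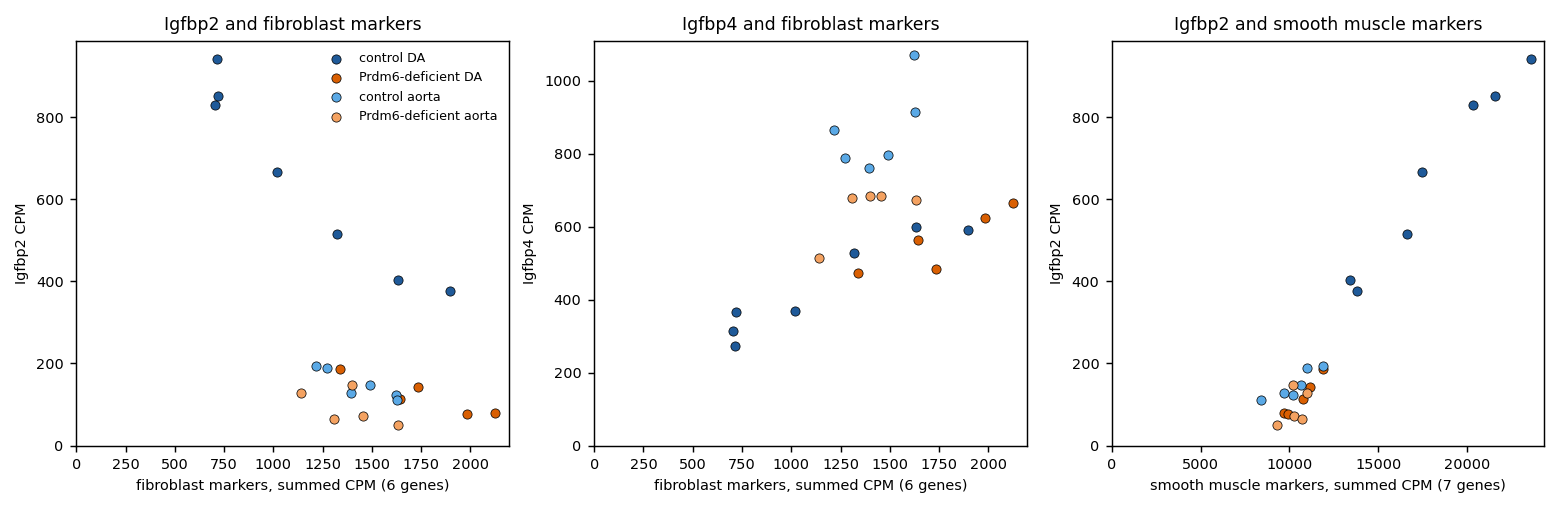
CPM of Igfbp2 or Igfbp4 (y axis) against the summed CPM of 6 fibroblast or 7 SMC marker genes (x axis), with 1 point per library and linear axes from 0. Among control DA libraries Igfbp2 falls as the fibroblast sum rises from 702 to 1895 CPM, and the Prdm6-deficient DA libraries, between 77.8 and 187 CPM, lie below all of them, at fibroblast sums of 1337 to 2123 CPM.

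Across all 23 libraries the genes most like Igfbp2, among the 12969 whose log2 CPM averaged 1 or more, were Csrp1 (r = 0.958 of log2 CPM), which encodes an SMC LIM protein, Gna14 (r = 0.948), a G protein alpha subunit, and Cnn1 (r = 0.946), the SMC calponin. Gna14 had a mean of 153 CPM in the control DA and 16.03 CPM in the Prdm6-deficient DA. Those most like Igfbp3 were Zfp36l2 (r = 0.800), an mRNA decay factor, Mpped2 (r = 0.790) and Col4a4 (r = 0.789), a basement membrane collagen chain. The libraries fall into 4 groups, which these values contain, so they describe the pattern and carry no test.

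Genes that act on IGF outside the cell were counted next. Of 8 listed, Igfbp1, Igfbpl1 and Igfals were too low to be tested, with at most 17, 23 and 17 counts in any library. Among the 5 others, 0 were called higher and 2 lower in the Prdm6-deficient DA, beside 2.61% and 2.82% of all tested genes, and their median was -0.51 on the log2 scale (0.01 over all tested genes). Pappa, the protease that cleaves IGFBP4 and IGFBP5, had 0.249 to 10.8 CPM (median 2.70) there and 9.36 to 26.2 CPM (median 16.2) in the control DA, so the groups overlapped at replicate 2 of the Prdm6-deficient group, and it was 3.93-fold lower (log2 -1.98, SE 0.49, adjusted p = 0.00657). This call was lost without Prdm6-deficient DA replicates 5, 6 or 7 or control DA replicates 5 or 7, with an adjusted p of up to 0.0235, and also within either run of animal numbers alone, with only the DA libraries fitted and without the control embryo with Cre (adjusted p up to 0.308). In the aorta Pappa was also lower with Prdm6 deficiency (means 1.86 against 5.65 CPM, log2 -1.61), but not called (adjusted p = 0.0645). Those groups did not overlap, as held for 6.95% of all tested genes. The Pappa effect was not called for a difference between the vessels in any fit. Its mean of 16.8 CPM in the control DA was above that of the control aorta. This difference was called in 6 of 11 alternatives other than leaving out a library, and not in the main fit. Stc2, a secreted inhibitor of PAPP-A, fell with Prdm6 deficiency in both vessels. In the DA it had 5.59 to 13.7 CPM (median 9.60), against 17.8 to 29.2 CPM (median 27.5) in controls, with no overlap (log2 -1.52, SE 0.25, adjusted p = 7.07e-05). In the aorta it had 1.89 to 6.94 CPM (median 5.91) against 14.7 to 21.9 CPM (median 16.3), again with no overlap (log2 -1.79, SE 0.26, adjusted p = 3.05e-05), and it was the 1 gene of the 5 that edgeR called in that vessel. DESeq2 called 3 there, with Pappa and Stc1 added, and limma-voom called 2, with Stc1 added. The call of Stc2 in the DA was lost within either run of animal numbers taken alone. Stc1, the related inhibitor, behaved differently in the vessels. It was 2.32-fold lower in the control DA than in the control aorta (log2 -1.22, SE 0.29, adjusted p = 0.00552), and its response to Prdm6 deficiency was higher in the DA than in the aorta by 1.93 on the log2 scale (SE 0.45, adjusted p = 0.00843), at log2 0.79 (adjusted p = 0.102) and -1.14 (adjusted p = 0.0375). The call for the vessels' difference in Stc1 was kept when the library left out was Prdm6-deficient aorta replicate 1, Prdm6-deficient DA replicates 1, 5 or 6 or control DA replicates 2, 4, 5 or 6, and was lost without any of the 15 other libraries (adjusted p up to 0.0215) and without the pooled DA samples. The control vessel call was lost without control aorta replicates 3, 4 or 6 or control DA replicates 3 or 7 (adjusted p up to 0.0141), and also with the animal as a block in control animals with both vessels and with only the groups compared (adjusted p up to 0.0252). Htra1, a serine protease that cuts several binding proteins, had log2 differences of 0.32 in the DA and 0.36 in the aorta, with adjusted p of 0.0460 and 0.0474.

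Of 27 genes that relay the signal inside the cell (receptor substrates, PI3-kinase, AKT, FOXO and mTOR genes), edgeR called 0 with Prdm6 deficiency in the DA and 0 in the aorta. Of all tested genes, 5.43% and 2.45% were called in these comparisons. At an unadjusted p below 0.05 edgeR had 9 and 3 of the 27, and DESeq2 and limma-voom called 0 in both. No share of all tested genes at that unadjusted threshold is given here. These counts, and others at it elsewhere, are therefore not read as results. The median log2 fold change was -0.02 in the DA and -0.05 in the aorta. Pik3r1, the main regulatory subunit of PI3-kinase, was 1.49-fold lower in the DA than in the aorta among Prdm6-deficient samples (92.7 to 126 CPM against 149 to 170 CPM; log2 -0.58, SE 0.10, adjusted p = 0.00280), the 1 call of this list between these vessels. It was lost without Prdm6-deficient aorta replicate 1 or Prdm6-deficient DA replicates 1, 2 or 6 (adjusted p up to 0.0132), and without both pooled DA samples. Pik3r1 was also lower in the control DA than in the control aorta (means 87.0 and 114 CPM), without a call. With Prdm6 deficiency in the aorta, Pik3r1 (log2 0.47, adjusted p = 0.00180) and Shc1 (log2 0.33, adjusted p = 0.00641) were higher. Both passed the p threshold, as 2.88% of all tested genes did, but not the fold threshold. The Prdm6 effect on Pik3r1 was not called for a difference between the vessels. Between the control vessels edgeR called 0 of the 27, with 10 at an unadjusted p below 0.05, and DESeq2 and limma-voom called 1 each.

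The imprinted growth genes and Igf2 mRNA-binding proteins gave 1 call of 10 in the DA and 2 of 10 in the aorta, beside 5.43% and 2.45% of all tested genes. H19, the noncoding RNA gene 72.6 kb from Igf2 that shares its imprinting control region, was 1.55-fold higher in the Prdm6-deficient aorta, at 6853 to 9254 CPM against 3780 to 6700 CPM (log2 0.63, SE 0.13, adjusted p = 0.00362). It was 1.60-fold higher in the control DA than in the control aorta (log2 0.68, SE 0.13, adjusted p = 3.45e-04), as was the direction for Igf2, while in the DA its response to Prdm6 deficiency was log2 -0.17 (95% interval -0.44 to 0.10). The effects in the vessels differed by -0.80 on the log2 scale (SE 0.19, adjusted p = 0.00918), a call that was kept when the library left out was Prdm6-deficient aorta replicate 2, Prdm6-deficient DA replicate 5, control aorta replicates 4 or 6 or control DA replicates 6 or 7, and lost without any of the 17 other libraries (adjusted p up to 0.0235). It was also lost without the control embryo with Cre and without the pooled DA samples (adjusted p up to 0.0463 over all settings). The H19 call in the aorta was lost without any of 6 aorta libraries (Prdm6-deficient replicates 1, 3 and 4, control replicates 1, 2 and 5), with an adjusted p of up to 0.0160, and within the second run of animal numbers. Mest, a paternally expressed growth gene, rose 2.16-fold in the Prdm6-deficient aorta (453 to 586 CPM against 162 to 302 CPM; log2 1.11, SE 0.21, adjusted p = 0.00123). Igf2bp3, which encodes a fetal RNA-binding protein that binds Igf2 mRNA, was 1.61-fold lower in the Prdm6-deficient DA (25.3 to 33.5 CPM against 34.2 to 53.4 CPM; log2 -0.69, SE 0.12, adjusted p = 2.78e-04), a call lost within either run of animal numbers alone (adjusted p up to 0.225). It was 1.42-fold higher in the control DA than in the control aorta (log2 0.51, SE 0.12, adjusted p = 0.00327), at the fold threshold. The latter call was lost without control aorta replicates 3 or 6 or control DA replicates 3, 6 or 7, with the animal as a block in control animals with both vessels, with limma-voom with and without the animal as a random block, and without the control embryo with Cre (adjusted p up to 0.0333). Between the control vessels edgeR and DESeq2 called 2 genes of this list each (H19 and Igf2bp3 in edgeR), and limma-voom called 1. Between the Prdm6-deficient vessels edgeR, DESeq2 and limma-voom called 0, with 2 at an unadjusted p below 0.05 in edgeR.

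**Figure D5:**
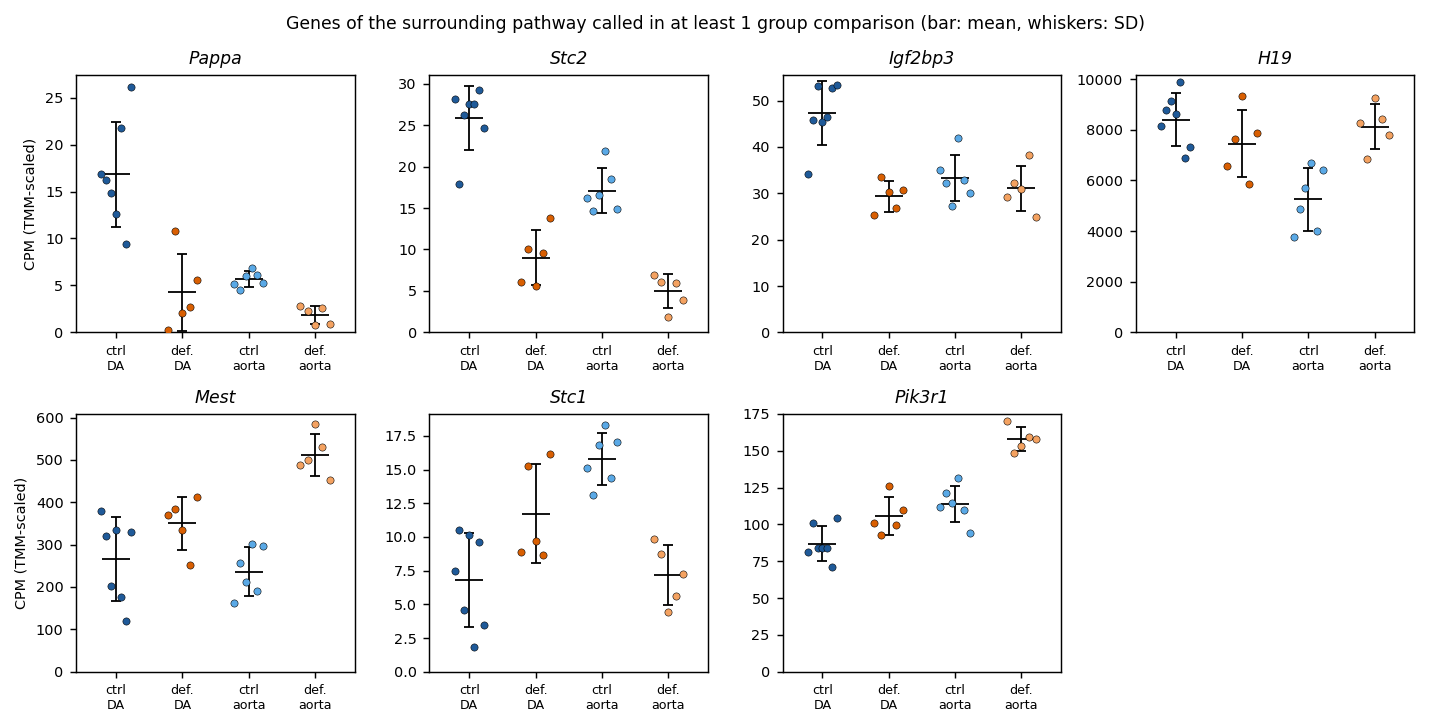
CPM (linear axis from 0) of the 7 genes around the IGF system that were called in at least 1 group comparison, with 1 point per library, bars for means and whiskers for SDs. Stc2 is lower with Prdm6 deficiency in both vessels, and Mest and H19 are higher with it in the aorta.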

How the data were processed

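RNA was sequenced from 24 samples, of which 23 had a column and were used. The authors kept reads with quality 20 or more at 90% or more of bases, cleaned them with tagdust (FDR 0.001), aligned to mm10 with STAR and estimated expression with RSEM and a GENCODE annotation given as version 20. Versions of STAR and RSEM are not given in the sources used here. The deposited values are RSEM expected counts per gene, not normalized, which share reads between similar genes, and they were rounded here. Symbols, coordinates and exon lengths came from GENCODE M21 (53861 of 54752 identifiers matched with their version, 54723 without, and 29 did not).

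The test was edgeR 4.0.16 in R 4.3.3 (filterByExpr, TMM, quasi-likelihood, 1 mean per group over all 23 libraries), with Benjamini-Hochberg adjustment over 16463 genes. The SE is the log2 fold change over the root of F, and ± gives SDs. DESeq2 1.42.0 and limma 3.58.1 were alternatives, and the steps were tested on simulated data. The members and gene lists were chosen with earlier results of these data known. Genes outside the members were named if called in any of the 4 group comparisons or, for likeness, as the 3 highest r for each member called in a genotype comparison. Htra1 was named after its values were seen. Replicates are separate embryos or pools. 6 control animals gave both vessels, as did 2 single Prdm6-deficient animals. The pool in Prdm6-deficient DA replicate 2 also held the embryos of Prdm6-deficient aorta replicates 1 and 2. The main fit took no account of animals shared between the vessels, in either genotype. No pair of libraries of a group agreed within counting noise (chi-square per gene at least 15.6). Intervals cover counting and replicate error, not PCR duplication.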

Additional observations from a re-analysis of the deposited data

Results flagged for a closer look

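In the Prdm6-deficient aorta Igfbp4 was 513 CPM in replicate 5, far from the other 4 samples at 674 to 684 CPM. Its gap to the nearest sample was 0.941 of the range of the group. This was 1 of 40 such checks over the members and groups, and chance flags about 1 in 20. Replicate 5 had a summed fibroblast marker level of 1140 CPM, the lowest of its group, and its part in the value was not tested.

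For 3 genes the effect of Prdm6 deficiency was called different between the DA and the aorta by a test of the difference itself. These were 1 of the 10 members, 1 of the 5 tested extracellular genes, 0 of the 27 relay genes and 1 of the 10 imprinted and Igf2 mRNA-binding genes, beside 2.58% of all tested genes. The DA effect minus the aorta effect was -1.75 on the log2 scale for Igfbp2, 1.93 for Stc1 and -0.80 for H19. The calls were lost in 9, 15 and 17 of the 23 fits that left out 1 library, in the same order.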

How the results depend on the processing

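Of 1680 member values over the alternatives, 1658 kept their side of the call, 15 lost a call and 7 gained it. The sign changed in 32 values, none of them called in the fit reported. The number of members called in the DA was 1 throughout except within the first run of animal numbers, where it was 0. In the aorta it was 1 except when the aorta libraries were fitted alone, where it was 2. For the difference between the vessels it was 0 with limma-voom, 0 with limma-voom and the animal as a random block and 0 without the pooled DA samples. Leaving out each library in turn gave 1 member in the DA, 1 in the aorta, 2 to 4 between the control vessels, 0 between the Prdm6-deficient vessels and 0 to 1 for the difference between the vessels. Without the control embryo with Cre, 4 members were called between the control vessels, with Igf2r added. Blocking on the animal in the 6 control animals with both vessels left 3 members called there.

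Replicate numbers in the titles marked the same animal in 2 of 6 same-numbered pairs of control vessels. In Prdm6-deficient vessels they marked the same single animal in 0 of 3 pairs. However, DA replicate 2 of that genotype is a pool that holds the embryo of aorta replicate 2. Same-numbered libraries did not deviate together (r from -0.0574 to 0.200 in the DA, with 1 of 5 pairs over 0.1, and from -0.0392 to 0.0732 in the aorta). With the number as a block, 1, 1, 3, 0 and 1 members were called in the DA, in the aorta, between the control vessels, between the Prdm6-deficient vessels and for the difference, as without it, while the count over all genes between the Prdm6-deficient vessels was 16 in place of 44. The block also ended the calls of H19 in the aorta, of H19 and Stc1 for the difference between the vessels, of Igf2bp3 between the control vessels and of Pik3r1 between the Prdm6-deficient vessels. The cause was not tested. That count was also 134 with DESeq2, 69 with limma-voom and the animal as a random block, 83 with only the groups compared, 15 without the pooled DA samples, and between 22 and 29 without any of 6 libraries. Over all genes 894 were called in the DA, against 61 within the first run of animal numbers and 147 within the second, with fewer samples, and 404 in the aorta, against 702 when fitted alone.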
